A study of Homo sapiens with 16 samples.

Results

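TRIM22, IKBKE, IFIT1, IFIT2, IFIT3, ISG15, IFIH1, EIF2AK2 and ADAR belong to the response of human cells to interferon and to double-stranded RNA. They are a named list of 9 genes among 60675 identifiers in the count table, each matched to 1 Ensembl identifier by its symbol. The cells were H9, an established line of human embryonic stem cells that here carries EGFP under the REX1 promoter, and their polyadenylated RNA was sequenced after transfection of pooled siRNAs at 30 to 50 nM. Knockdowns targeted 4 genes with 3 libraries each: SALL4, a zinc finger transcription factor of pluripotent cells, and VRTN, the gene of the DNA-binding protein vertnin, harvested at 48 h, and DSCC1, a cohesion and clamp-loading factor, and SEPHS1, a selenophosphate synthetase homologue, harvested at 72 h. The 4 control libraries, 2 with siRNA against Renilla luciferase and 2 with an siRNA named only Control, carry no harvest time in the labels. These hours are those of the extraction protocol, while the growth protocol gives 3 to 4 days after transfection. The luciferase, SALL4, DSCC1 and SEPHS1 reagents were esiRNAs, made by enzymatic digestion of long double-stranded RNA, and the one for VRTN came from another supplier. Every group had received double-stranded RNA, and no untransfected cells were analysed here. The labels call the knockdown libraries independent biological replicates.

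Cells detect double-stranded RNA in the cytoplasm with sensors such as MDA5, the product of IFIH1, which signal through the adaptor MAVS to the kinases TBK1 and IKK-epsilon, the product of IKBKE. These kinases activate IRF3 and IRF7, which switch on interferon genes, and secreted interferon acts through JAK and STAT proteins to induce a set of effector genes. Among the effectors, IFIT1, IFIT2 and IFIT3 bind foreign RNA or its partners, ISG15 is a ubiquitin-like modifier, and TRIM22 is an antiviral ubiquitin ligase that is also a target of p53. EIF2AK2, also called PKR, is a kinase that halts translation when it binds double-stranded RNA, and ADAR edits adenosine to inosine in double-stranded RNA. Human embryonic stem cells are known for a weak interferon response to double-stranded RNA.

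The genes differ in the sequence in front of their start sites. RefSeq promoter windows on GRCh38.p14, from 250 bases before to 50 bases after a start site, matched 7 of the 9 genes, and each window was searched on both strands for GAAANNGAAA, the core of the interferon-stimulated response element. The motif was in the windows of 5 of the 7 genes (ISG15, IFIT1, IFIT3, IFIH1 and EIF2AK2) and in 3.57% of all 35116 windows of 300 bases. The 7 genes had 10 windows, so a share of genes stands here beside a share of windows. These letters were not in the windows of IKBKE and ADAR, and TRIM22 and IFIT2 matched no window. Stretches from 3 windows are printed because they belong to the modifier ISG15, the RNA-binding IFIT1, which had few counts here, and the kinase EIF2AK2. Capitals mark the motif or its reverse complement, and the 2 matches in ISG15 overlap.
ISG15, chr1:1013377-1013406, plus strand: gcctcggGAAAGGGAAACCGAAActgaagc
IFIT1, chr10:89392504-89392532, plus strand: tagTTTCACTTTCcccTTTCGGTTTCcct
EIF2AK2, chr2:37156967-37156996, minus strand: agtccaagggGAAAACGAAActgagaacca
The first matches began 113, 116 and 6 bases before the start site in ISG15, IFIT1 and EIF2AK2. A match is a description of the sequence and says nothing about factor binding in these cells.

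Library totals ran from 18597262 to 28662389 counts, and a count of 0 allows up to 3 counts, or 0.102 to 0.175 CPM (counts per 1e+06 counts of the library, scaled by edgeR's trimmed mean of M-values). In the targeted libraries, SALL4 fell to 193, 213 and 235 CPM, against 243 to 303 CPM in controls (log2 fold change -0.36, adjusted p = 0.0257), while VRTN and SEPHS1 each fell by 2.75 on the log2 scale. DSCC1 had 13 to 24 counts in its own knockdown against 70 to 129 in controls and was not called (adjusted p = 0.417). Of 12 markers of human embryonic stem cells, 11 were detected, and ZFP42, which encodes REX1, was listed at 0 in all 16 libraries. Whether its reads were lost in counting was not tested, and an exact 0 of another gene carries the same doubt.

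Expression of the 9 genes fell into 3 tiers. Averaged over all 16 libraries and divided by exonic length, ADAR stood at 37.4 ± 3.80 CPM per kb (SD, n = 16). Next came TRIM22 at 5.80 ± 5.18, ISG15 at 2.77 ± 1.11, EIF2AK2 at 2.54 ± 0.639 and IKBKE at 1.10 ± 0.675 CPM per kb, of which ISG15 and EIF2AK2 differed by less than their spread. IFIT1, at 0.0849 ± 0.141 CPM per kb, IFIT2, IFIT3 and IFIH1 were at or near zero. Outside the SALL4 siRNA libraries, TRIM22 averaged 3.48 ± 1.05 CPM per kb, so its place above ISG15 and EIF2AK2 was within the spread there.

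**Figure D1:**
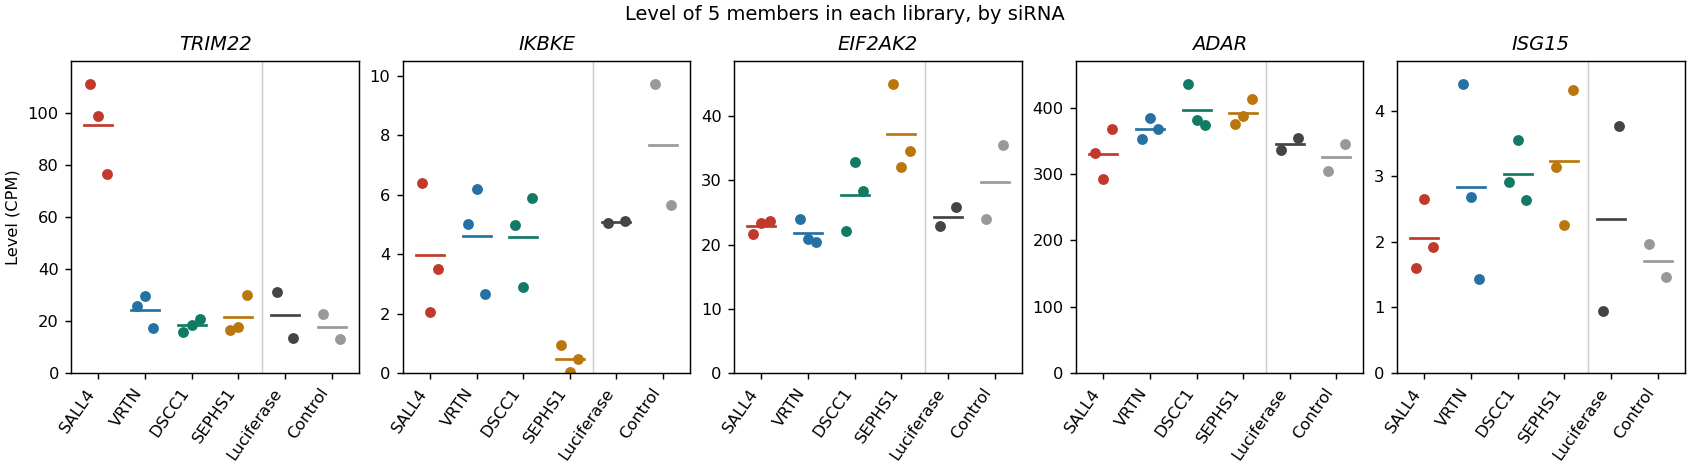
Level of TRIM22, IKBKE, EIF2AK2, ADAR and ISG15 in CPM (y axis, linear from 0) in each library (points), by siRNA (x axis), with group means as bars; n = 3 for the knockdowns and n = 2 for Luciferase and Control. TRIM22 sits between 76.5 and 111 CPM in SALL4 siRNA libraries and at or below 31.0 CPM elsewhere, and IKBKE is below 1 CPM in SEPHS1 siRNA libraries alone.

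Of the 9 genes, 7 passed edgeR's filter on low counts and entered its quasi-likelihood test; p was adjusted by Benjamini-Hochberg across 19772 genes, and a gene was called at an adjusted p under 0.05. IFIT3 and IFIH1 did not pass. IFIT2 passed through SALL4 siRNA libraries alone. It had no counts in the other knockdowns or the controls, so no comparison among those groups could call it. In SALL4 siRNA cells 1 of the 7, TRIM22, was higher and none was lower than in controls, where 3.31% of all genes tested were called in either direction. In VRTN siRNA cells none of the 7 was called (1.2% of all genes), and none had an unadjusted p under 0.05. In DSCC1 siRNA cells none was called either (0.121% of all genes), and 1, ADAR, had an unadjusted p under 0.05. In SEPHS1 siRNA cells 1 of the 7, IKBKE, was lower and none was higher (1.57% of all genes). Limma-voom also called none of the genes in VRTN and DSCC1 siRNA cells, nor did DESeq2, which however gave no adjusted p for ISG15 in VRTN and for TRIM22, IKBKE, ISG15 and EIF2AK2 in DSCC1 siRNA cells. The median log2 fold change of the 5 genes averaging at least 1 log2 CPM was -0.02 in SALL4, 0.14 in VRTN, 0.05 in DSCC1 and 0.23 in SEPHS1 siRNA cells, against -0.00, 0.01, -0.01 and -0.03 over all genes at that level.

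**Figure D2:**
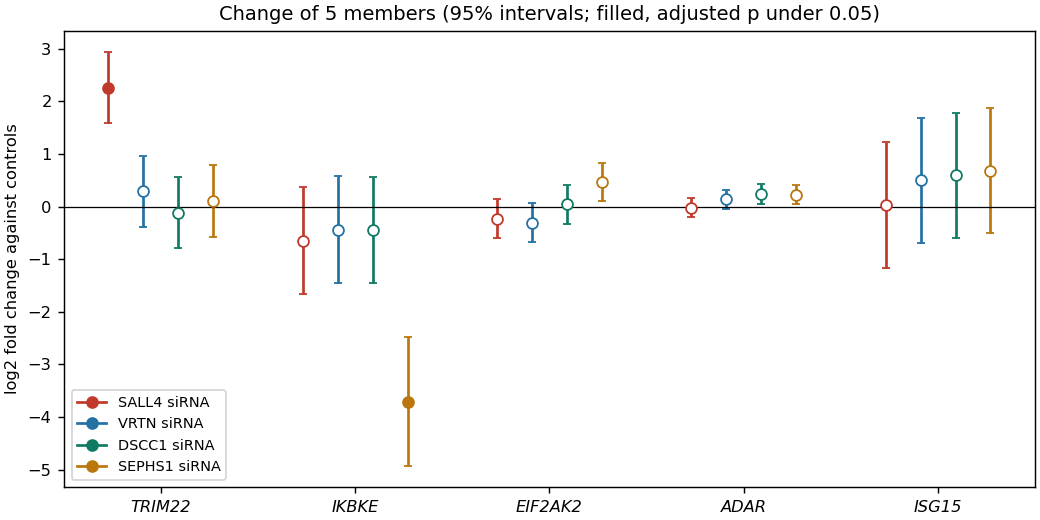
Log2 fold change against the 4 controls (y axis) for 5 of the genes (x axis) in SALL4, VRTN, DSCC1 and SEPHS1 siRNA cells (colours, left to right), with 95% intervals from edgeR; filled points are called. Only TRIM22 in SALL4 siRNA cells (2.26) and IKBKE in SEPHS1 siRNA cells (-3.71) are filled.

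TRIM22 (chromosome 11, 5689689 to 5737089, plus strand, GRCh38) had 111, 98.7 and 76.5 CPM in SALL4 siRNA libraries, against 31.0 and 13.5 CPM in Luciferase and 22.6 and 12.9 CPM in Control libraries. It had 25.8, 29.7 and 17.2 CPM in VRTN, 15.9, 18.5 and 20.7 CPM in DSCC1 and 16.6, 17.7 and 30.0 CPM in SEPHS1 siRNA libraries. All 3 SALL4 siRNA libraries lay above each of the other 13, and the other 3 knockdowns overlapped the controls. TRIM22 rose in SALL4 siRNA cells (95.4 ± 17.4 CPM, n = 3, against 20.0 ± 8.57 CPM, n = 4; SD) by 2.26 on the log2 scale (SE 0.31, 95% interval 1.59 to 2.94, adjusted p = 0.001), a 4.80-fold difference. Among 12224 genes averaging at least 1 log2 CPM, this was the 25th highest log2 fold change. In bulk RNA, a change in how many cells express a gene and a change in RNA per cell cannot be told apart.

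The TRIM22 difference was also found against each of the other knockdowns. SALL4 siRNA cells exceeded VRTN siRNA cells, harvested at the same hour, by 1.98 (SE 0.34, adjusted p = 0.00611), and TRIM22 was the 1 gene of the list called in that comparison (2.63% of all genes were called). They exceeded DSCC1 siRNA cells by 2.38 (SE 0.35, adjusted p = 0.00185), again as the 1 gene of the list called (3.09% of all genes), and SEPHS1 siRNA cells by 2.16 (SE 0.35, adjusted p = 0.00231). In VRTN, DSCC1 and SEPHS1 siRNA cells the TRIM22 log2 fold change was 0.29 (-0.39 to 0.96), -0.11 (-0.80 to 0.57) and 0.11 (-0.57 to 0.79) against controls, with no call. The controls themselves spread by replicate number: replicate 2 minus replicate 1 of TRIM22 was -1.17 on the log2 scale in Luciferase and -0.78 in Control libraries. Set against the 2 replicate 2 libraries alone, TRIM22 was called in VRTN siRNA cells as well (0.88, adjusted p = 0.0388).

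TRIM22 lies on chromosome 11 among other TRIM genes, which encode related ubiquitin ligases, and 10.7% of its exonic bases are also annotated to OR56B1 on the same strand. Of 5 other TRIM genes on chromosome 11, 4 were tested and none was called in any knockdown against controls. TRIM21 and TRIM68, which start at 4384897 and 4598672, lie much farther from TRIM22 than TRIM5, TRIM6 and TRIM34. TRIM5, a retroviral restriction factor whose annotated span on the opposite strand covers TRIM22 with no exonic base shared, averaged 28.1 ± 2.37 CPM in SALL4 siRNA cells (n = 3) and 19.3 ± 2.52 CPM in controls (n = 4, SD), with an adjusted p of 0.217. TRIM6 averaged 8.04 ± 2.67 and 7.85 ± 1.18 CPM in the same groups. Though not called, TRIM5 lay above every control in all SALL4 siRNA libraries, and TRIM6 in all VRTN siRNA libraries. TRIM34 was at 0 in all 16 libraries. By Pearson's correlation of log2(CPM + 0.5) over the 16 libraries, the 5 genes whose levels were most like TRIM22's were IER3 (0.93), CD99 (0.92), CHD3 (0.91), SDC2 (0.91) and FBLN1 (0.91). Without the 3 SALL4 siRNA libraries these values were 0.66, 0.39, 0.80, 0.25 and 0.72 over 13 libraries. The 16 libraries are not independent points, since those of 1 siRNA share their treatment.

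TRIM22 is known as a p53 target, and 15 other p53 targets, chosen with earlier results of these data in view, were read beside it. In SALL4 siRNA cells 3 of the 15 were higher, none was lower and 12 were not called, where 3.31% of all genes tested were called. The median log2 fold change of the 15 was 0.85, against -0.00 over all genes of at least 1 log2 CPM. CCNG1, a cyclin of the p53 response, had 45.0, 37.1 and 33.9 CPM in SALL4 siRNA libraries and 15.0 to 18.1 CPM in controls (log2 fold change 1.22, SE 0.19, adjusted p = 1.66e-05). MDM2, the ubiquitin ligase that degrades p53, had 77.0, 82.8 and 44.1 CPM and 30.2 to 44.5 CPM in the same groups (0.85, SE 0.17, adjusted p = 0.00107). BAX, a pro-apoptotic protein, had 303, 270 and 176 CPM and 139 to 175 CPM (0.66, SE 0.14, adjusted p = 0.00704). Replicate 3 of the SALL4 siRNA cells was the lowest of the 3 for TRIM22 and for each of these genes, and for MDM2 it lay inside the control range. In VRTN, DSCC1 and SEPHS1 siRNA cells none of the 15 was called (1.2%, 0.121% and 1.57% of all genes). The median log2 fold changes there were -0.15, -0.30 and -0.31. CCNG1 nonetheless lay above every control in all VRTN (23.1, 25.7 and 19.8 CPM) and all SEPHS1 siRNA libraries (28.3, 25.0 and 24.6 CPM). It overlapped the controls in DSCC1 siRNA libraries, and MDM2 and BAX overlapped them in each of these knockdowns. The share of all genes separated from the controls in this way is not given here, so the uncalled CCNG1 separations are not read as results. The BAX call was lost under 5 of 29 alternatives, among them without SALL4 replicate 1 or 2 (adjusted p = 0.0593 and 0.0558), and the MDM2 call under 1, with only the knockdown and the controls in the fit (0.0512).

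Genes that interferon induces were read in the same libraries. All 8 type I and type III interferon genes of the list, IFNB1 and IFNL1 among them, had 0 counts in all 16 libraries. Of 41 other interferon-stimulated genes, 8 had no count anywhere and 27 were tested. In SALL4 siRNA cells 2 of the 27 were higher and none lower, where 3.31% of all genes tested were called. No gene of the list was called in VRTN, DSCC1 or SEPHS1 siRNA cells (1.2%, 0.121% and 1.57% of all genes). Over the list's genes of at least 1 log2 CPM, the median log2 fold change was 0.07 in SALL4 and -0.12 in VRTN siRNA cells. It was 0.22 in DSCC1 and 0.13 in SEPHS1 siRNA cells. IFITM1, a membrane protein that blocks viral entry, had 158, 162 and 126 CPM in SALL4 siRNA libraries and 56.5 to 87.3 CPM in controls (1.09, SE 0.13, adjusted p = 2.04e-07). IFITM3, its paralogue, had 1997, 1756 and 1337 CPM and 1023 to 1132 CPM in those groups (0.66, SE 0.11, adjusted p = 0.000945). Though not called elsewhere, IFITM3 lay above every control in all DSCC1 siRNA libraries (1399, 1196 and 1505 CPM). It also did in all SEPHS1 siRNA libraries (1180, 1242 and 1499 CPM). All VRTN siRNA libraries lay below every control (942, 989 and 1002 CPM). IFITM1 lay above every control in all VRTN siRNA libraries (89.1, 90.9 and 96.7 CPM) and overlapped the controls with DSCC1 and SEPHS1 siRNA. Without the share of all genes separated in this way, which is not given here, these uncalled separations are not read as results. IFITM1, IFITM2 and IFITM3 are alike in part of their sequence, and IFITM1 lies inside the annotated span of IFITM2 on the same strand. How reads shared between these genes were counted is not given in the sources used here, so the split among them is uncertain. SOCS1, an inhibitor of JAK signalling, had 186, 142 and 64.1 CPM in SALL4 siRNA libraries and 50.1 to 60.0 CPM in controls (1.24, SE 0.26, adjusted p = 0.0234). That call was lost under 10 of 29 alternatives, among them without SALL4 replicate 2 (adjusted p = 0.0954). Though not called there, SOCS1 lay below every control in all VRTN and all SEPHS1 siRNA libraries.

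**Figure D3:**
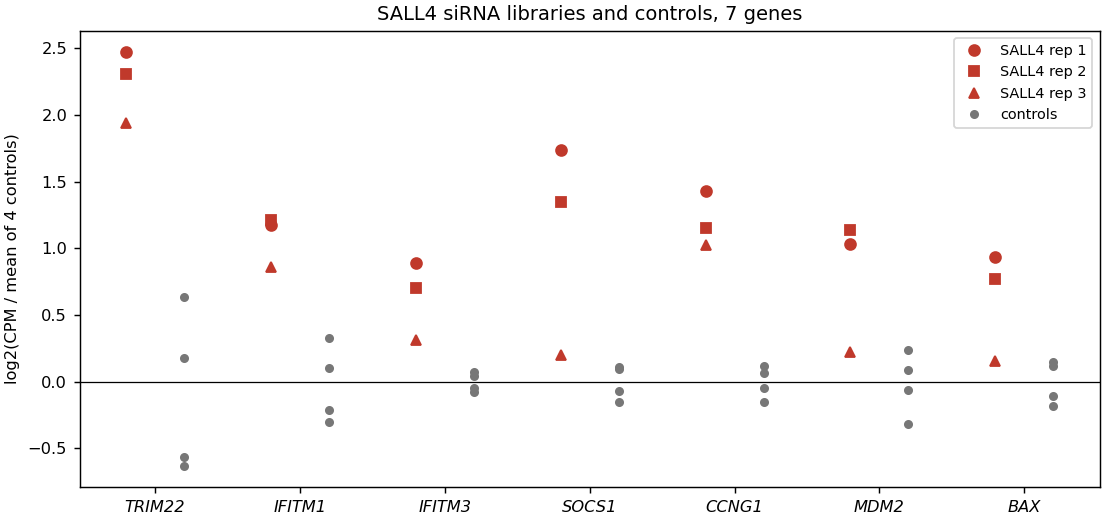
Log2 ratio of each library's CPM to the mean of the 4 controls (y axis) for TRIM22, 3 other interferon response genes and 3 p53 targets (x axis), in the 3 SALL4 siRNA libraries (red, one marker shape per replicate) and the controls (grey). TRIM22 is farthest above the controls, and replicate 3, the triangle, is the lowest SALL4 siRNA library for all 7 genes.

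Markers of other cells were read beside these results. The 8 leukocyte markers summed to 0.416 to 1.49 CPM in SALL4 siRNA libraries and 0.306 to 1.60 CPM in controls, and PTPRC, which encodes CD45, was at 0 in all 16 libraries. The 12 stem cell markers summed to 3935 to 4159 CPM in SALL4 siRNA libraries and 4906 to 5663 CPM in controls. Of the 11 tested, 4 were lower in SALL4 siRNA cells, SALL4 itself among them, where 3.31% of all genes tested were called. The part of that difference in the TRIM22 result was not tested. The 9 markers of fibroblasts and mesenchyme, all detected, summed to 798 to 1714 and 1829 to 2066 CPM in the same groups, although of the 7 tested 1 was higher and none lower, with a median log2 fold change of 0.34 over those of at least 1 log2 CPM, and the 4 endothelial markers to 0.426 to 0.748 and 0.476 to 3.72 CPM.

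IKBKE (chromosome 1, 206470476 to 206496889, plus strand), the kinase between the sensors and IRF3, had 19, 1 and 8 counts in SEPHS1 siRNA libraries, against 107 and 128 in Luciferase and 283 and 166 in Control libraries. In CPM these are 0.930, 0.0427 and 0.467, against 5.05, 5.12, 9.72 and 5.65. All 3 SEPHS1 siRNA libraries lay below each of the other 13, and replicate 2 was under the 3 counts that a 0 allows. IKBKE fell by 3.71 on the log2 scale (SE 0.61, 95% interval -4.94 to -2.48, adjusted p = 0.000133), to 0.480 ± 0.444 CPM in SEPHS1 siRNA cells (n = 3), against 6.38 ± 2.24 CPM in controls (n = 4, SD). It was the 8th lowest log2 fold change among the 12224 genes averaging at least 1 log2 CPM. With limma-voom the fall was -4.71 and missed the threshold (adjusted p = 0.0722).

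In the other knockdowns IKBKE had 6.39, 2.04 and 3.49 CPM with SALL4, 5.01, 6.20 and 2.67 CPM with VRTN and 4.99, 2.89 and 5.88 CPM with DSCC1 siRNA. All 3 groups overlapped the controls, and none was called, at log2 fold changes of -0.65 (-1.66 to 0.37), -0.44 (-1.45 to 0.58) and -0.45 (-1.46 to 0.56). IKBKE was higher in each of them than in SEPHS1 siRNA cells. DSCC1 siRNA cells, harvested at the same 72 h, exceeded SEPHS1 siRNA cells by 3.26 (SE 0.62, adjusted p = 0.00319), with IKBKE the 1 gene of the list called and 0.425% of all genes. SALL4 siRNA cells exceeded them by 3.06 (SE 0.62, adjusted p = 0.000896) in a comparison that called 3 of the list and 5.62% of all genes. VRTN siRNA cells exceeded them by 3.27 (SE 0.62, adjusted p = 0.000804), where 2 of the list and 2.07% of all genes were called. With limma-voom these 3 calls were lost (adjusted p = 0.228, 0.0817 and 0.0893 for DSCC1, SALL4 and VRTN). In VRTN against DSCC1 siRNA cells none of the list was called (1.52% of all genes; no unadjusted p under 0.05).

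The gene whose level followed IKBKE's most closely over the 16 libraries, by the same measure and chosen after the values were seen, was NAV1 (0.92), followed by SEPHS1 itself (0.90), ZNF777 (0.89), INPP5J (0.89) and BRD1 (0.87). Without the 3 SEPHS1 siRNA libraries these values were 0.57, 0.40, 0.24, 0.22 and 0.64 over 13 libraries. SEPHS1 had 79.3, 49.1 and 54.2 CPM in its own knockdown and 381 to 440 CPM in controls. It was also at 174, 197 and 249 CPM in SALL4 siRNA libraries, below the control range, while IKBKE there overlapped it. Of 18 other kinases and transcription factors of the sensor pathway, 17 were tested. In SEPHS1 siRNA cells 1 of them was called (1.57% of all genes): RELA, an NF-kappaB subunit, at 47.3, 48.8 and 49.5 CPM, against 58.1 to 78.8 CPM in controls (-0.52, SE 0.13, adjusted p = 0.0256). That call was lost without any single SEPHS1 siRNA or control library (adjusted p = 0.0668 to 0.156) except Luciferase replicate 2. None of the 17 was called in SALL4, VRTN or DSCC1 siRNA cells.

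**Figure D4:**
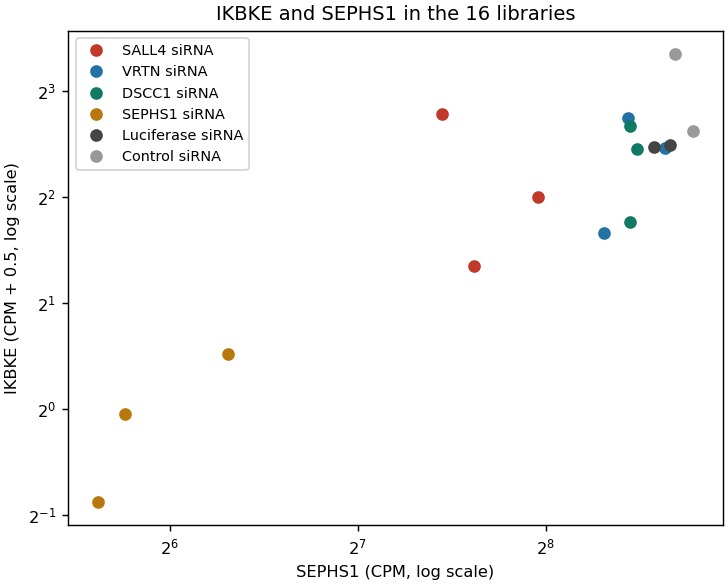
IKBKE (y axis, CPM + 0.5, log scale) against SEPHS1 (x axis, CPM, log scale) in the 16 libraries, coloured by siRNA. The 3 SEPHS1 siRNA libraries lie lowest on both axes, and the SALL4 siRNA libraries are low for SEPHS1 but reach 6.39 CPM of IKBKE.

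No sensor of double-stranded RNA was called in any knockdown against controls. IFIH1 had 2 counts in Control replicate 1 and 0 in the other 15 libraries, so it was at the count floor, set as no library over 3 counts. Of 14 other sensors and adaptors, 5 were likewise at that floor and 8 were tested. MAVS, the adaptor, averaged 41.7 ± 6.41 CPM in SALL4 siRNA cells (n = 3) and 54.7 ± 4.22 CPM in controls (n = 4, SD), with an adjusted p of 0.236. All SALL4 siRNA libraries lay below every control for MAVS (40.4, 36.0 and 48.6 CPM, against 49.7 to 60.0 CPM).

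EIF2AK2, the translation-halting kinase (chromosome 2, 37099210 to 37157065, minus strand), had 45.0, 32.0 and 34.6 CPM in SEPHS1, 21.7, 23.4 and 23.7 CPM in SALL4, 24.0, 20.8 and 20.5 CPM in VRTN and 22.1, 32.8 and 28.4 CPM in DSCC1 siRNA libraries. Luciferase libraries had 22.8 and 25.8 CPM and Control libraries 23.9 and 35.6 CPM. One SEPHS1 siRNA library lay above all controls and the other 2 lay among them. Against controls EIF2AK2 was not called in any knockdown, with a log2 fold change of 0.47 (SE 0.18, 95% interval 0.10 to 0.83, adjusted p = 0.229) in SEPHS1, -0.23 in SALL4, -0.31 in VRTN and 0.05 in DSCC1 siRNA cells. It was lower in SALL4 than in SEPHS1 siRNA cells (-0.70 on the log2 scale, SE 0.20, adjusted p = 0.0237) and lower in VRTN than in SEPHS1 siRNA cells (-0.77, SE 0.20, adjusted p = 0.0209). In these comparisons siRNA and harvest hour cannot be told apart; DSCC1 and SEPHS1 siRNA cells, both at 72 h, differed by -0.42 (adjusted p = 0.493). The SALL4 call was lost without SEPHS1 replicate 1 (adjusted p = 0.160) and without SALL4 replicate 1 or 2 (0.108 and 0.0883), and the VRTN call without SEPHS1 replicate 1 (0.154) and without VRTN replicate 1, 2 or 3 (0.0505, 0.110 and 0.0712). Limma-voom lost both, at adjusted p = 0.0581 for SALL4 and 0.0994 for VRTN siRNA cells. Among 8 other eIF2-alpha kinases and partners none was called. EIF2AK4, the amino acid sensing kinase, averaged 54.2 ± 11.6 CPM in SALL4 siRNA cells and 69.9 ± 12.5 CPM in controls (adjusted p = 0.239), and ATF4, the factor translated when eIF2-alpha is phosphorylated, 529 ± 41.2 and 459 ± 29.4 CPM (adjusted p = 0.255).

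ADAR, the editing enzyme (chromosome 1, 154582057 to 154628013, minus strand), had the highest level per length of the 9. It had 331, 292 and 369 CPM in SALL4, 352, 385 and 368 CPM in VRTN, 436, 381 and 373 CPM in DSCC1 and 375, 388 and 414 CPM in SEPHS1 siRNA libraries, against 337 and 355 CPM in Luciferase and 304 and 346 CPM in Control libraries. All DSCC1 and all SEPHS1 siRNA libraries lay above the highest control, yet the log2 fold changes of 0.24 (SE 0.09, adjusted p = 0.711) and 0.23 (SE 0.09, adjusted p = 0.257) were not called. In SALL4 and VRTN siRNA cells they were -0.02 and 0.14. How many of all genes lay outside the control range in the same way is not given here, so the ADAR separation is not read as a result. The counts are per gene and do not separate the interferon-induced from the constitutive isoform. Of 12 other genes of RNA editing and double-stranded RNA binding, 11 were tested and none was called. DICER1, which cuts double-stranded RNA, had a log2 fold change of -0.51 in SEPHS1 siRNA cells (SE 0.17, adjusted p = 0.145), with each SEPHS1 siRNA library below every control. ADARB2, a relative of ADAR, averaged 0.550 ± 0.590 CPM in SALL4 siRNA cells and 0.351 ± 0.277 CPM in controls. ADARB2 had 0 counts in all VRTN siRNA libraries, in SEPHS1 replicates 1 and 3 and in SALL4 replicate 3. Luciferase libraries had 3 and 12 counts and Control libraries 3 and 20, and a 0 cannot be told from 3 counts.

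ISG15, the ubiquitin-like modifier (chromosome 1, 1001138 to 1014540, plus strand), had 20 to 108 counts in every library. Its level was 1.60, 2.65 and 1.92 CPM in SALL4, 4.40, 2.68 and 1.44 CPM in VRTN, 2.91, 3.56 and 2.64 CPM in DSCC1 and 3.13, 2.26 and 4.32 CPM in SEPHS1 siRNA libraries. Luciferase libraries had 0.944 and 3.76 CPM and Control libraries 1.96 and 1.46 CPM, so the groups overlapped and a Luciferase library was the lowest of all 16. The log2 fold changes were 0.03 (-1.16 to 1.23), 0.50 (-0.69 to 1.69), 0.60 (-0.59 to 1.78) and 0.69 (-0.50 to 1.87) in SALL4, VRTN, DSCC1 and SEPHS1 siRNA cells, and none was called. A 2-fold rise of ISG15 lay inside each of these intervals, so neither it nor no change lies outside them.

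The 3 IFIT genes, all on chromosome 10, had few counts. IFIT1 had 0 counts in 9 libraries; the others were 51 and 12 in VRTN replicates 3 and 1, 34 in SEPHS1 replicate 1, 21 in DSCC1 replicate 1, 7 in SALL4 replicate 2, 13 in Luciferase replicate 1 and 5 in Control replicate 2. Every group held at least 1 library at 0, and no comparison called IFIT1. IFIT2 had 18 and 15 counts in SALL4 replicates 1 and 2 and 0 in replicate 3 and in the other 13 libraries. It was not called with edgeR (unadjusted p = 0.0374, adjusted p = 0.331) and was called with limma-voom, and since all controls are at 0 no fold is given. IFIT2 passed the filter on low counts through those 2 SALL4 siRNA libraries alone, the group where it was high. Neither outcome is therefore read as a result. IFIT3 had 8 counts in SALL4 replicate 1 and 6 in Luciferase replicate 1 and 0 elsewhere; with under 10 counts in every library it lay near the floor.

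**Figure D5:**
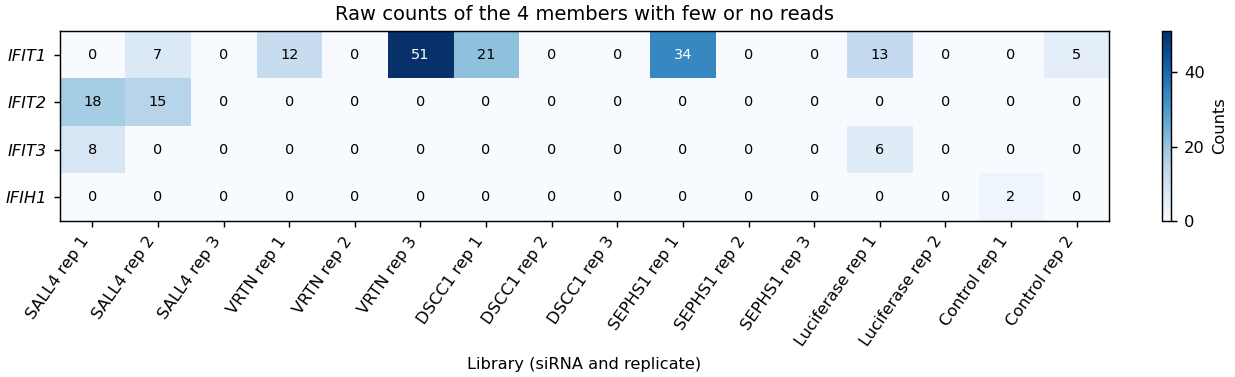
Raw counts (colour and number) of IFIT1, IFIT2, IFIT3 and IFIH1 (rows) in the 16 libraries (columns, knockdowns left of the controls). Most cells are 0; IFIT1 reaches 51 counts in VRTN replicate 3, and IFIT2 has counts in 2 SALL4 siRNA libraries alone.

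The Control and Luciferase siRNAs were set against each other as a check of the control groups. None of the 7 genes was called between them, at an unadjusted p of 0.232 or more, and neither was any of the 19772 genes (0% called; 195 had an unadjusted p under 0.05, and DESeq2 and limma-voom called 0). With 2 libraries each this test could miss sizeable differences, so the lack of calls does not show that the control siRNAs agree. TRIM22 was -0.33 (-1.21 to 0.56), IKBKE 0.60 (-0.71 to 1.91) and ADAR -0.09 (-0.33 to 0.15) in Control relative to Luciferase siRNA cells on the log2 scale. IFIT2, among the 7, had no counts in either control group and could not be called.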

How the data were processed

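The authors deposited raw counts per gene. The submitters' processing notes name STAR 2.4.0.1, HTSeq 0.9.1 and GRCh38. The annotation release, the strand setting and the treatment of shared reads are not given in the sources used here. Per the labels' protocols, poly(A) RNA went into Lexogen SENSE libraries, sequenced single-end. Symbols came from a gene name table (56558 identifiers) or GENCODE release 29 (497), which also gave positions and exonic lengths. Genes were filtered with filterByExpr, scaled with TMM and tested in 1 design of 6 groups with edgeR 4.0.16 in R 4.3.3 (robust quasi-likelihood fit), each knockdown against the mean of Luciferase and Control. DESeq2 1.42.0 and limma 3.58.1 (voom with quality weights) were alternatives, with 2 other scalings, 2 other filters, a replicate block, other control sets and each library left out. The members and gene lists were chosen with earlier results of these data known. Named are all 9 members, the 4 targeted genes, and from each list the called genes or, with none called, the 2 with the smallest p; 1 gene so selected is not reported here. The pipeline was tested on simulated data. Without molecular identifiers, the floor of 3 counts covers counting error alone.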

Additional observations from a re-analysis of the deposited data

Results flagged for a closer look

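Several results on these genes stand apart. Between knockdowns, TRIM22 was higher in SALL4 than in VRTN, DSCC1 and SEPHS1 siRNA cells, by 1.98, 2.38 and 2.16 on the log2 scale, each called by edgeR's test of the difference. IKBKE was higher in DSCC1, SALL4 and VRTN than in SEPHS1 siRNA cells, by 3.26, 3.06 and 3.27. EIF2AK2 differed between SALL4 and SEPHS1 siRNA cells by -0.70 and between VRTN and SEPHS1 siRNA cells by -0.77, where siRNA and harvest hour cannot be told apart.

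Among the 4 control libraries, 1 stood apart for IKBKE: Control replicate 1 had 9.72 CPM, and its gap to the next library, 5.65 CPM, was 0.872 of the whole range. Chance alone sets such a library apart in about 1 in 20 groups. The other controls, at 5.05 to 5.65 CPM, still lay above every SEPHS1 siRNA library.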

How the results depend on the processing

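Results were recomputed under other scalings, filters and tests, other control sets, a replicate block and with each library left out, plus a fit without the robust option and the list genes under the same settings, both added after the data were seen. TRIM22 in SALL4 siRNA cells stayed called under all 29 alternatives, at 1.85 to 2.85. With limma-voom the list's calls became 2 in SALL4 siRNA cells (IFIT2 and TRIM22) and 0 in SEPHS1 siRNA cells, and against replicate 2 of the controls VRTN siRNA cells had 1 (TRIM22). The IFIT2 call is of a gene that passed the filter only through SALL4 siRNA libraries. Under leave-one-out the counts were 1 in SALL4, 0 in VRTN and DSCC1 and 1 in SEPHS1 siRNA cells throughout. Of 55 results for the 5 measured genes, most of them not called, 46 stayed called or uncalled under each alternative. Every IKBKE and EIF2AK2 call was lost under at least 1 alternative, and the TRIM22 calls held under all. Across the alternatives, 13 lost a call, 5 gained one and none turned a called direction, while 51 turned the sign of a change that was called in neither. For 5 of the 55 results, ISG15 in VRTN and TRIM22, IKBKE, ISG15 and EIF2AK2 in DSCC1 siRNA cells, DESeq2 gave no adjusted p. ADAR became lower in SALL4 than in DSCC1 and SEPHS1 siRNA cells with limma-voom (-0.33 and -0.32) and without SALL4 replicate 3. Causes were not tested. With the replicate block the counts stayed 1, 0, 0 and 1. Of 36 same-numbered pairs, 11 correlated over 0.1 (-0.33 to 0.38), so the numbers were not taken to pair libraries. Some differently numbered libraries correlated as well, such as Luciferase replicate 2 with SALL4 replicate 3 (0.45) and with VRTN replicate 3 (0.37). A grouping of libraries across the numbers was not tested, and neither the replicate block nor the control sets by replicate number account for one. Over all genes, calls ran from 255 to 1291 in SALL4 (655 as reported), 105 to 399 in VRTN (237), 2 to 64 in DSCC1 (24) and 108 to 533 in SEPHS1 siRNA cells (310). Low counts limit the IFIT genes and IFIH1.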

Other observations

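Other called genes of the interferon lists moved apart from the 9 described genes. SOCS3, an inhibitor of JAK signalling, was lower in VRTN siRNA cells, at 12.0, 12.2 and 12.4 CPM, against 16.9 to 27.6 CPM in controls (log2 fold change -0.84, SE 0.21, adjusted p = 0.0231). It was the 1 called gene of 14 interferon receptor and JAK-STAT genes there, where 1.2% of all genes tested were called. Its call was lost under 8 of 29 alternatives, among them without VRTN replicate 1, 2 or 3. TAP2, a peptide transporter of antigen presentation, was lower in SALL4 siRNA cells, at 5.48, 1.17 and 7.58 CPM, against 10.7 to 19.2 CPM in controls (-1.68, SE 0.42, adjusted p = 0.036). It was the 1 called gene of 11 antigen presentation genes, where 3.31% of all genes tested were called. Its call was lost under 16 of 29 alternatives, among them without SALL4 replicate 1 (adjusted p = 0.136).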
